A study of Mus with 2 samples.

Results

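*Cenpu*, *Gm34590*, *Srrm3* and *Ccdc152* were close to absent in nuclei of control brown fat and were detected in adipocyte nuclei of the library labelled *Wtap*-BKO. They are 4 of the 32285 genes in the files. They were chosen on the measured difference in adipocyte nuclei, so that difference is given below as a description with no test. All values are unique molecular identifiers (UMIs, each standing for 1 captured RNA molecule) from droplet-based single-nucleus RNA-seq (snRNA-seq) of interscapular brown adipose tissue (iBAT).

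The mice were C57BL/6, 8 weeks old and fed normal chow. Both groups carried *Wtap* flox/flox, in which loxP sites flank an exon that Cre removes. The *Wtap*-BKO mice also carried *Ucp1*-iCre, in which Cre is made from the *Ucp1* locus and is therefore limited to cells that use that locus, above all brown adipocytes. There was 1 library per genotype, each pooled from nuclei of 4 mice that cannot be separated. No test between genotypes was possible. The 95% intervals below cover counting error only, and genotype, tissue pieces and library preparation cannot be told apart.

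The *Wtap* flox/flox library held 9494 nuclei with a median of 954 UMIs, and the library labelled *Wtap*-BKO held 8772 nuclei with a median of 1306 UMIs. Mitochondrially encoded RNA made up 7.60% and 11.7% of their UMIs, and 20 cell barcodes occurred in both. Of 13 clusters, 5 were called adipocyte-like, with 6743 and 4933 nuclei, since 7 to 12 of the 12 adipocyte markers passed in each. The level of the targeted gene was alike in both libraries. *Wtap* gave 50.5 counts per 1000000 UMIs (CPM) in *Wtap* flox/flox adipocyte-like nuclei and 48.3 CPM in those labelled *Wtap*-BKO, a log2 ratio of -0.06 (95% interval -0.27 to 0.14). Tags near the end of the transcript lie outside a deleted internal exon, so this level is no check of the deletion.

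WTAP is the adaptor that brings the METTL3 and METTL14 methyltransferase to its sites on RNA, where it writes N6-methyladenosine (m6A), a mark that affects splicing, export and decay of transcripts. Brown adipocytes burn fuel for heat through UCP1. The genes described here have no known common pathway. *Cenpu* encodes a subunit of the centromere network on which the kinetochore is built, *Srrm3* encodes a serine- and arginine-rich regulator of the very short exons used in neurons, *Ccdc152* encodes a coiled-coil protein, and *Gm34590* is a long non-coding RNA (lncRNA).

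The genes lie apart in the genome. By RefSeq on GRCm38.p6, which is the mm10 build named in the submitters' processing notes, *Cenpu* spans chr8:46552019-46580568 and shares 4990 bp with its neighbour *Primpol*. *Srrm3* spans chr5:135806860-135874773. Both *Ccdc152*, at chr15:3280099-3303526, and *Gm34590*, at chr15:36937995-36963704, are on chromosome 15, and *Ccdc152* shares 412 bp with *Selenop* and 5037 bp with the lncRNA *Gm41254*, which was not analysed here.

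To describe the difference that chose the genes, UMIs were summed over adipocyte-like nuclei. *Cenpu* had 17 UMIs in *Wtap* flox/flox nuclei (2.24 CPM) and 825 UMIs in nuclei labelled *Wtap*-BKO (98.9 CPM), a log2 ratio of 5.46 (4.78 to 6.25). *Gm34590* went from 11 UMIs (1.45 CPM) to 526 UMIs (63.0 CPM), a log2 ratio of 5.44 (4.59 to 6.45). Most of the *Wtap* flox/flox nuclei with these genes held a single UMI, and no nucleus there held more than 2. *Srrm3* had 11 UMIs (1.45 CPM) and 493 UMIs (59.1 CPM), a log2 ratio of 5.35 (4.50 to 6.36). *Ccdc152* had 22 UMIs (2.90 CPM) and 427 UMIs (51.2 CPM), a log2 ratio of 4.14 (3.52 to 4.83). In the *Wtap* flox/flox library all 4 genes were thus at a trace level that was still above 0.

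Among the 4025 genes that reached 50 CPM in either library, 6 had a log2 ratio of at least 4, which is 0.149%, and these 6 included the 4 genes by the way they were chosen. *Cenpu*, *Gm34590* and *Srrm3* held ranks 1, 2 and 3, and *Ccdc152* held rank 6. Between them stood *Col5a3*, a fibrillar collagen chain, with 98 and 2773 UMIs (log2 ratio 4.69), and *Egr1*, an immediate-early transcription factor, with 53 and 1062 UMIs (4.19). The next were *Pcolce2*, an enhancer of procollagen processing, at 3.96 and *Adam2*, best known from sperm, at 3.59. These neighbours in the ranking had 53 to 98 UMIs in the *Wtap* flox/flox nuclei, against 11 to 22 for the 4 genes. The median log2 ratio of the 4025 genes was -0.12. Below the CPM minimum the high ratios went on: of 14082 genes with at least 20 UMIs, 31 reached a log2 ratio of 4 with the *Wtap* flox/flox count set to at least 3 UMIs.

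**Figure D1:**
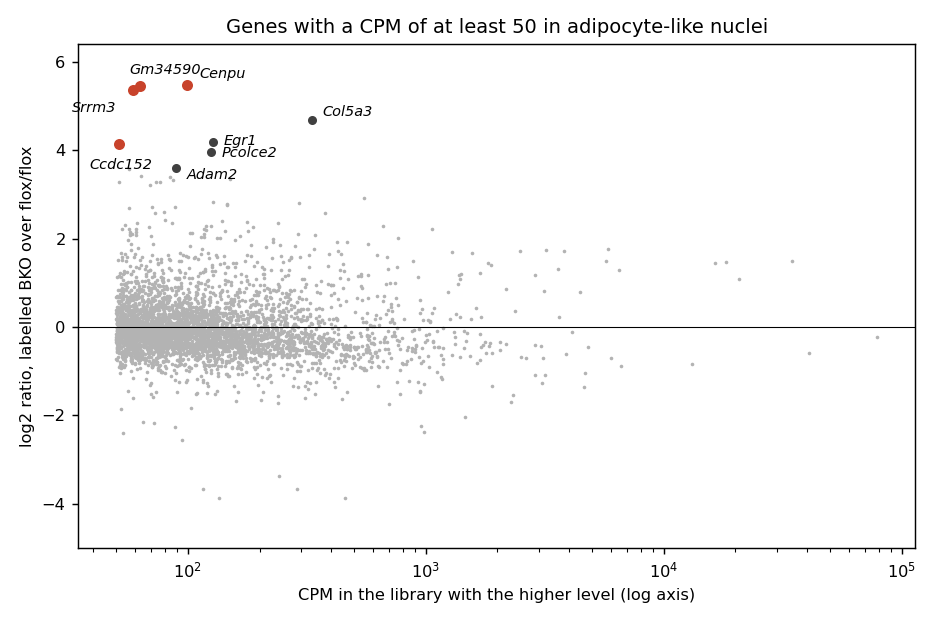
Log2 ratio of CPM in adipocyte-like nuclei, labelled *Wtap*-BKO over *Wtap* flox/flox, against the CPM in the library with the higher level (log axis), with 1 point per gene for 4025 genes. The 4 genes (red) lie between 4.14 and 5.46, and *Col5a3*, *Egr1*, *Pcolce2* and *Adam2* (dark) are the nearest by rank.

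Adipocyte-like nuclei held most of the UMIs of these genes. In the library labelled *Wtap*-BKO, they held 84.2% of the UMIs of *Cenpu*, 85.3% of *Gm34590*, 85.1% of *Srrm3* and 83.9% of *Ccdc152*, beside 59.8% of all UMIs. The remaining UMIs were spread over every other large class. *Cenpu* stood at 23.4 CPM in endothelial-like, 23.5 in macrophage-like, 42.5 in T cell-like, 23.9 in fibroblast-like and 38.03 in pericyte-like nuclei. *Gm34590* ranged over the same classes from 9.51 CPM in pericyte-like to 30.0 in T cell-like nuclei, *Srrm3* from 6.98 in fibroblast-like to 22.4 in endothelial-like nuclei, and *Ccdc152* from 6.34 in pericyte-like to 28.0 in T cell-like nuclei. These classes rested on 2 to 44 UMIs per gene. In the *Wtap* flox/flox library, adipocyte-like nuclei held 89.5% of 19 UMIs of *Cenpu* and 84.6% of 26 UMIs of *Ccdc152*. They held 68.8% of 16 UMIs of *Gm34590* and 64.7% of 17 UMIs of *Srrm3*, beside 70.5% of all UMIs.

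All non-adipocyte nuclei together also differed between the libraries. *Cenpu* had 2 and 155 UMIs there (0.629 and 27.7 CPM), a log2 ratio of 5.46 (3.58 to 8.52). *Gm34590* had 5 and 91 UMIs (1.57 and 16.2 CPM), a log2 ratio of 3.37 (2.09 to 5.03). *Srrm3* had 6 and 86 UMIs (1.89 and 15.4 CPM), a log2 ratio of 3.03 (1.84 to 4.51), and *Ccdc152* had 4 and 82 UMIs (1.26 and 14.6 CPM), a log2 ratio of 3.54 (2.13 to 5.45). The difference was thus also seen outside adipocyte-like nuclei, at a lower CPM. Without the nuclei of highest doublet score, these log2 ratios were lower, at 4.70 (2.80 to 7.76) for *Cenpu*, 2.63 (1.16 to 4.57) for *Gm34590*, 2.50 (1.29 to 4.01) for *Srrm3* and 2.43 (0.95 to 4.39) for *Ccdc152*. The part of doublets in the UMIs that remained was not tested. Without nuclei over 5% mitochondrial UMIs, they were at 3.51 (1.54 to 6.61) for *Cenpu*, 2.68 (0.61 to 5.83) for *Gm34590* and 2.45 (0.72 to 4.83) for *Srrm3*. *Ccdc152* then had 0 *Wtap* flox/flox UMIs and gave no value.

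**Figure D2:**
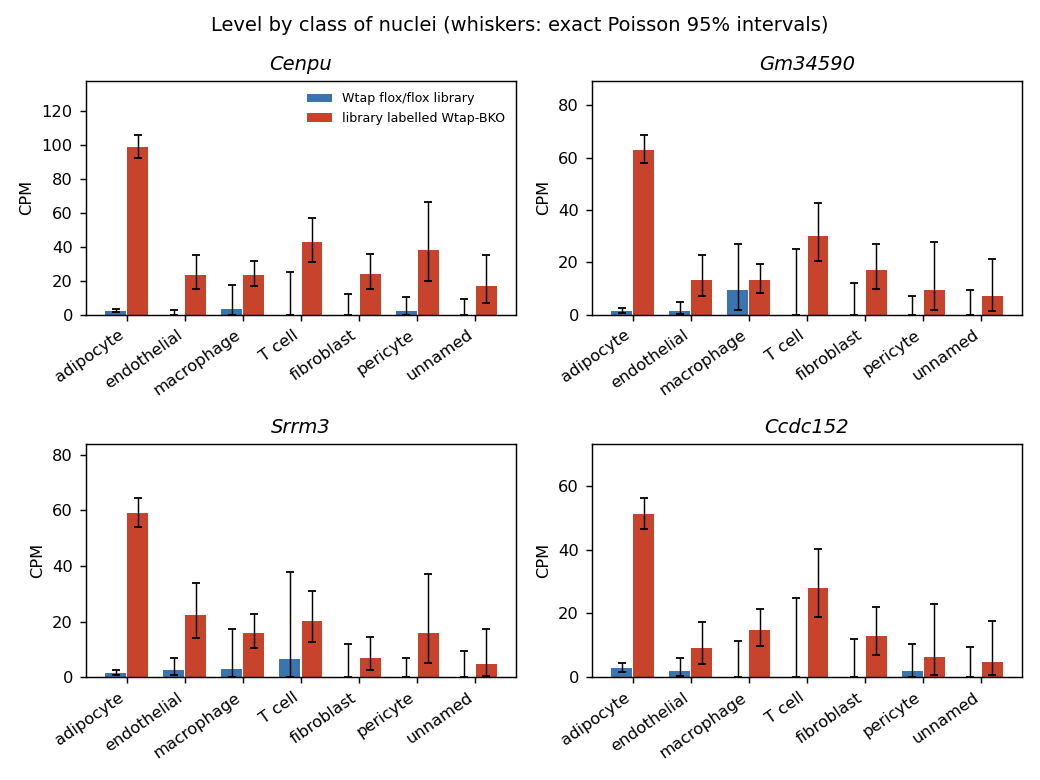
CPM of each of the 4 genes (panels) by class of nuclei, with *Wtap* flox/flox in blue and the library labelled *Wtap*-BKO in red; whiskers are exact Poisson 95% intervals. The red bar is highest in adipocyte-like nuclei, at 98.9, 63.0, 59.1 and 51.2 CPM, and the other classes hold low but not empty red bars.

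The level outside adipocytes was set beside that of 12 adipocyte markers, since free RNA of adipocytes can add UMIs to any droplet. In macrophage- and T-cell-like nuclei labelled *Wtap*-BKO, *Cenpu* stood at 30.7% of its adipocyte-like CPM, *Gm34590* at 30.5%, *Srrm3* at 29.5% and *Ccdc152* at 38.2%. The 12 markers, among them *Adipoq*, *Lipe* and *Plin1*, ranged from 29.0% to 49.5% with a median of 33.6%. Every one of the 4 genes was within the range of the markers there. In T cell-like nuclei alone they stood at 34.4% to 54.8% (markers 29.0% to 53.5%), and in macrophage-like nuclei alone at 20.8% to 28.8% (markers 26.4% to 47.8%). In fibroblast-like nuclei *Srrm3* was at 11.8% (4.73% to 24.5%) and the others were at 24.2% to 26.9%, with the markers at 24.4% to 48.9%. In endothelial-like nuclei *Cenpu* (23.7%, 14.9% to 35.8%), *Gm34590* (21.0%, 11.1% to 36.2%) and *Ccdc152* (17.9%, 8.12% to 34.3%) lay below the markers, which ran from 27.5% to 114%, and *Srrm3* was at 37.9%. The part of free RNA in these UMIs was not tested, and no expression outside adipocytes is read from them.

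The mix of the 4 genes was also set beside that outside adipocytes. Of their 2271 UMIs in adipocyte-like nuclei, *Cenpu* made up 36.3%, *Gm34590* 23.2%, *Srrm3* 21.7% and *Ccdc152* 18.8%. Of their 248 UMIs in macrophage- and T-cell-like nuclei, the shares were 35.1%, 22.2%, 20.2% and 22.6%. The mix differed more in the smaller classes, where *Srrm3* made up 32.8% of 67 UMIs in endothelial-like and 11.5% of 61 UMIs in fibroblast-like nuclei, and *Ccdc152* made up 13.4% and 21.3%.

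**Figure D3:**
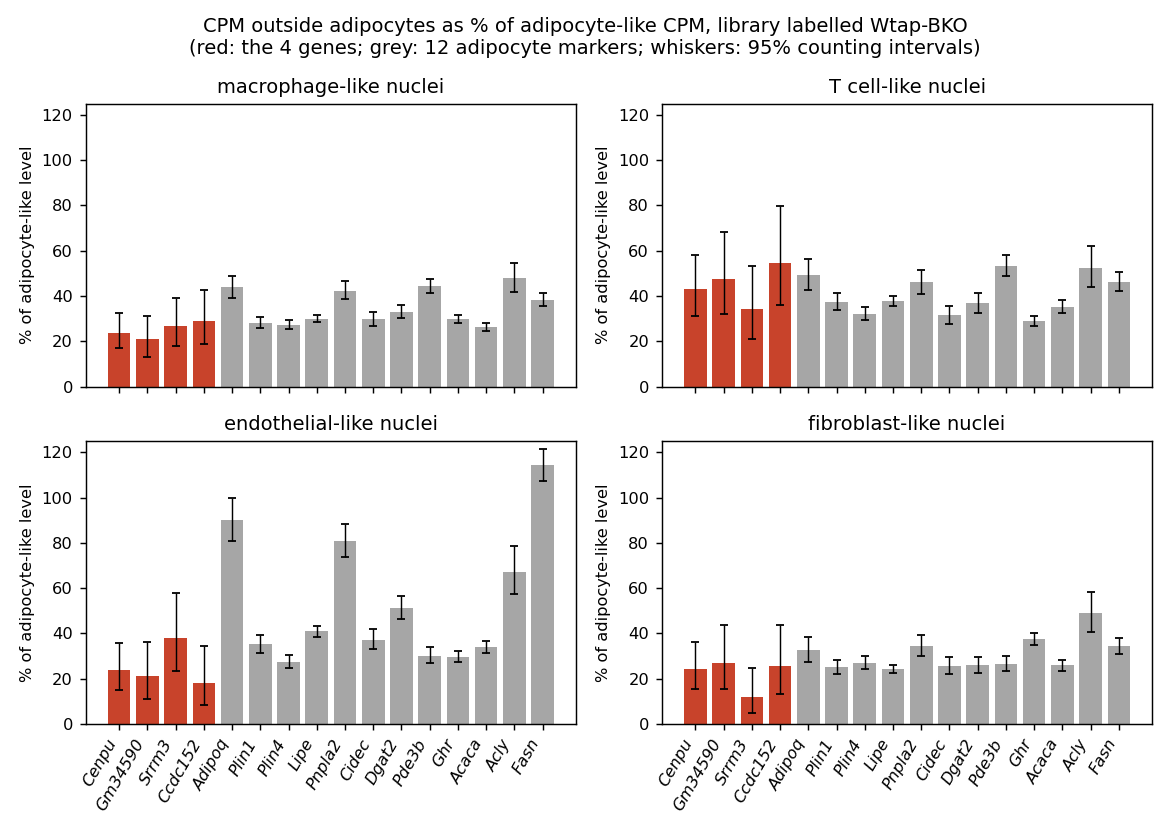
CPM in macrophage-, T cell-, endothelial- and fibroblast-like nuclei as a percentage of the CPM in adipocyte-like nuclei, library labelled *Wtap*-BKO, for the 4 genes (red) and 12 adipocyte markers (grey), with 95% counting intervals. The red bars lie near or below the grey ones in macrophage-, endothelial- and fibroblast-like nuclei. In T cell-like nuclei *Cenpu* (43.0%), *Gm34590* (47.6%) and *Ccdc152* (54.8%) lie above the marker median of 37.5%, and *Srrm3* (34.4%) lies below it.

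The 4 genes did not follow the same pattern over adipocyte subtypes. The 5 adipocyte-like clusters were a large cluster 0, cluster 1 led by mitochondrially encoded RNA, cluster 2 led by *Lncbate10*, *Gmpr*, *Foxp2* and *Lgr6*, cluster 9 led by *Slc7a10*, *Cyp2e1*, *Trhde* and *Retn*, of which *Slc7a10* and *Retn* are known from white adipocytes, and cluster 11 led by interferon-induced genes such as *Gbp6* and *Iigp1*. The mix of clusters differed between the libraries: cluster 9 held 198 of the 6743 adipocyte-like *Wtap* flox/flox nuclei and 495 of the 4933 labelled *Wtap*-BKO, and cluster 2 held 1455 and 593. The 4 genes were left out of the genes used for clustering. In the library labelled *Wtap*-BKO, *Cenpu* stood at 88.3 CPM in cluster 0, 77.8 in cluster 1, 161 in cluster 2, 94.6 in cluster 9 and 79.2 in cluster 11. *Gm34590* stood at 67.3, 60.4, 103, 21.8 and 30.5 CPM in the same order. Both were highest in cluster 2, and *Gm34590* was lowest in cluster 9. *Srrm3* followed *Gm34590*, with 62.4, 53.1, 89.1, 31.8 and 44.2 CPM. *Ccdc152* took another course, with 37.0, 27.9, 45.8, 141 and 57.9 CPM, and was highest in cluster 9.

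Against clusters 0 and 1 together, cluster 2 was higher for all 4 genes, with log2 ratios of 0.96 (0.73 to 1.19) for *Cenpu*, 0.69 (0.41 to 0.97) for *Gm34590*, 0.63 (0.33 to 0.93) for *Srrm3* and 0.50 (0.08 to 0.91) for *Ccdc152*. *Wtap* was also higher in that cluster, by 0.54 (0.18 to 0.89), and was at 0.03 (-0.30 to 0.34) in the *Wtap* flox/flox library. In the library labelled *Wtap*-BKO, *Acsl1* (0.58, 0.54 to 0.62) and the adipocyte marker *Ghr* (0.27, 0.20 to 0.33) were higher there too, and *Selenop* was lower (-0.55, -0.97 to -0.16). The median mitochondrial share over both libraries was 14.1% in cluster 1 and 2.48% in cluster 2. This lowers the CPM of cluster 1 by construction, and its part was not tested. Against clusters 0, 1 and 2 together, cluster 9 was close to them for *Cenpu* at a log2 ratio of -0.10 (-0.41 to 0.20), lower for *Gm34590* at -1.74 (-2.40 to -1.15) and *Srrm3* at -1.03 (-1.57 to -0.53), and higher for *Ccdc152* at 1.99 (1.69 to 2.29). *Ghr*, the growth hormone receptor gene 14229 bp from *Ccdc152*, was higher in cluster 9 too, by 2.28 (2.23 to 2.32) in this library and by 1.33 (1.23 to 1.44) in the *Wtap* flox/flox library. The overlapping *Selenop* was at 0.25 (-0.14 to 0.62). *Ghr* was one of the adipocyte markers, and cells of 1 library are not replicates, so these ratios describe the clusters. In the *Wtap* flox/flox library, no cluster held more than 12 UMIs of any of the 4 genes, too few to rank the subtypes.

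**Figure D4:**
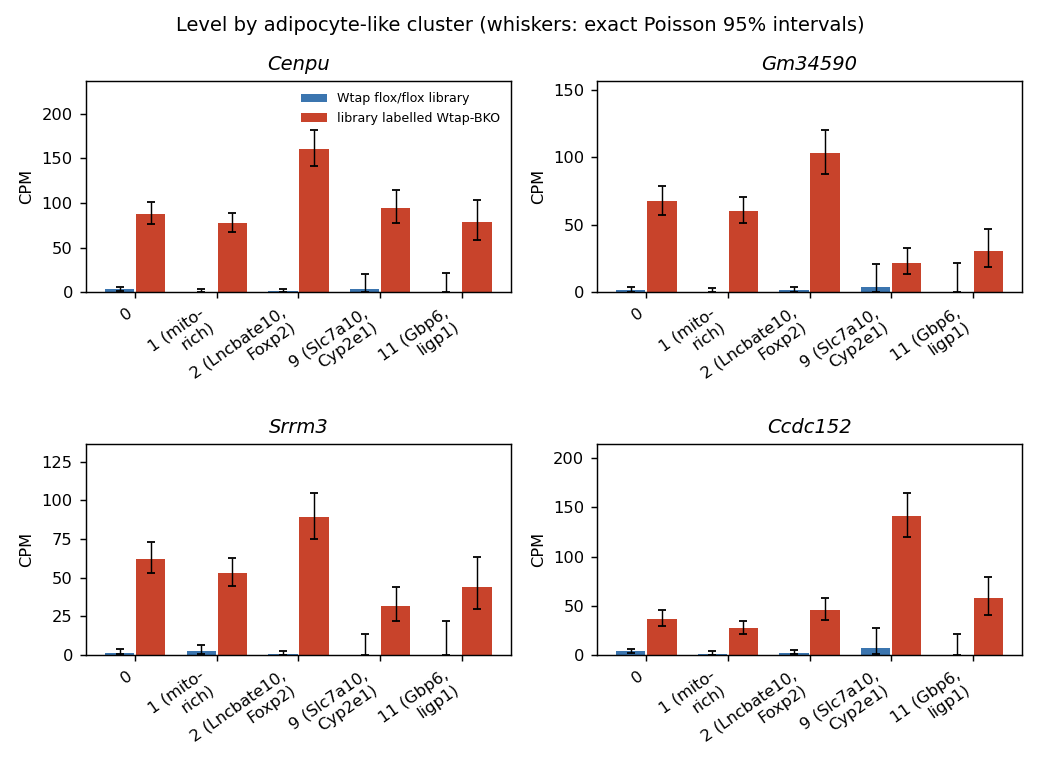
CPM of each of the 4 genes (panels) in the 5 adipocyte-like clusters, with *Wtap* flox/flox in blue and the library labelled *Wtap*-BKO in red; whiskers are exact Poisson 95% intervals. Cluster 2 is highest for *Cenpu* (161), *Gm34590* (103) and *Srrm3* (89.1), and cluster 9 is highest for *Ccdc152* (141).

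The mix moved accordingly. *Ccdc152* made up 48.7% of the UMIs of the 4 genes in cluster 9 and 11.5% in cluster 2, and *Gm34590* made up 7.55% and 25.8%.

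The level also moved with mitochondrial RNA. Within adipocyte-like nuclei labelled *Wtap*-BKO, *Cenpu* stood at 124.6 CPM in nuclei with up to 5% mitochondrial UMIs, 106 at 5% to 10%, 87.4 at 10% to 25% and 57.3 above 25%. *Ccdc152* fell from 71.8 to 62.9, 38.1 and 18.5 CPM over the same steps. *Gm34590* had 69.1, 71.8, 57.8 and 40.4 CPM, and *Srrm3* had 61.5, 64.6, 60.9 and 18.5 CPM. CPM counts mitochondrial UMIs in its total, so a higher mitochondrial share lowers the CPM of other genes by construction. Nuclei with up to 5% made up 5190 of the *Wtap* flox/flox and 1057 of the *Wtap*-BKO-labelled adipocyte-like nuclei. The part of mitochondrial RNA in the values was not tested.

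To compare shares of nuclei at a single depth, each nucleus was thinned to 1000 UMIs. In the library labelled *Wtap*-BKO, 3843 adipocyte-like nuclei were deep enough and 1090 were not, and in the *Wtap* flox/flox library 3286 were and 3457 were not. *Cenpu* was then found in 8.35% (7.50% to 9.27%) of the nuclei labelled *Wtap*-BKO and in 5 *Wtap* flox/flox nuclei, or 0.152%. *Gm34590* was found in 5.20% (4.52% to 5.95%) and 0.152%. The flox/flox shares rested on 3 to 5 nuclei each. *Srrm3* was found in 5.57% (4.86% to 6.34%) and 0.0913%, and *Ccdc152* in 4.29% (3.67% to 4.98%) and 0.152%. In 1138 macrophage- and T-cell-like nuclei labelled *Wtap*-BKO, which should lack adipocyte transcripts, the shares were 2.64%, 1.93%, 1.23% and 1.58%. Over all nuclei labelled *Wtap*-BKO of each class, with those too shallow to thin, median depths were 1475 UMIs in adipocyte-like and 1140 UMIs in macrophage- and T-cell-like nuclei.

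By cluster, the share was largest in cluster 2 for *Cenpu* (13.7%), *Gm34590* (8.97%) and *Srrm3* (9.48%), and in cluster 9 for *Ccdc152* (12.6%). At this depth each of the 4 genes was detected in a minority of nuclei, also in these clusters. Most positive nuclei had a single UMI. Without thinning, *Cenpu* gave 1 UMI in 483 adipocyte-like nuclei labelled *Wtap*-BKO, 2 in 106 and 3 or more in 40, with at most 5 in 1 nucleus. *Gm34590* gave 1 UMI in 362 nuclei and 2 in 65, *Srrm3* in 371 and 52, and *Ccdc152* in 282 and 46, and the highest counts were 4, 6 and 7.

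To see whether the genes were found in the same nuclei, detection was counted in the 3843 thinned nuclei. At least 1 of the 4 was found in 812 nuclei, or 21.1% (19.8% to 22.5%), where the product of the single shares gives 21.5%. At least 2 were found in 86 nuclei, or 2.24% (1.79% to 2.76%), where the product gives 1.86%. The share from independent detection was within the interval in both cases. It was below the interval in cluster 9, where 2.98% (1.60% to 5.04%), or 13 of 436 nuclei, held at least 2 and the product gives 1.52%. A set of 3 genes was found in 2 nuclei and all 4 in 0. In the *Wtap* flox/flox library, 18 of 3286 nuclei held 1 of the genes (0.548%). There, 0 of 3286 held 2, with an exact binomial interval up to 0.112%, where 3 nuclei would be 0.0913%. Among the macrophage- and T-cell-like nuclei labelled *Wtap*-BKO, 7.12% held at least 1 gene and 0.264% held at least 2.

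By pair, the number of nuclei with both genes was between 0.932 and 1.31 times that from the product of their shares. With the product taken within each cluster, it was between 1.05 and 1.26 times. *Cenpu* and *Ccdc152* were found together in 18 nuclei against 13.8 from the product, and *Cenpu* and *Gm34590* in 21 against 16.7. *Gm34590* and *Ccdc152*, which differ in their preferred cluster, were found together in 8 nuclei against 8.59, or 7.47 within clusters. Sparse counts such as these give no finding on shared control.

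Nuclei with at least 2 of the genes were set beside nuclei with none. Their mitochondrial share was lower, with a median of 7.47% against 10.3%, and 27.9% of them were in cluster 2 against 13.4%. The 19 thermogenic genes summed to 13814 CPM against 11018 CPM, a log2 ratio of 0.33 (0.24 to 0.41). Much of the difference came from 1 gene, *Ppara*, a nuclear receptor of fatty acid oxidation, with 5093 CPM against 3745 CPM (0.44, 0.30 to 0.58). *Ebf2* (0.81, 0.49 to 1.10), *Gk* (0.83, 0.18 to 1.41) and *Pparg* (0.29, 0.03 to 0.54) were also higher, and the intervals of *Ucp1* (0.42, -0.19 to 0.98) and *Cidea* (0.14, -0.25 to 0.50) spanned 0. The 12 adipocyte markers also summed to more, 15895 CPM against 14064 CPM. With 1 or more genes in place of 2, a choice made after the data were seen, the sum was 12734 CPM, *Ucp1* was at 0.56 (0.35 to 0.76) and *Cidea* at -0.06 (-0.20 to 0.08). The part of the cluster mix and of mitochondrial RNA in this was not tested. *Wtap* gave 0 UMIs in the 86 nuclei, against 48.5 CPM in nuclei with none. There, 3 UMIs would be 34.9 CPM, which is not the upper end of an interval. In nuclei with 1 or more genes *Wtap* was at 44.3 CPM, a log2 ratio of -0.13 (-0.70 to 0.40).

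Of 7505 genes tested in this way, 6.45% had a log2 ratio of at least 1 and 9.5% of -1 or less. Of 18 thermogenic genes among them, 0 were at 1 or more and 1 was at -1 or less, with a median of 0.19. The highest were *Zfp513* and *Tctn1*, both at 2.23, *Utp3* at 2.19, and *Ccnc* and *Psme3*, both at 2.14. They rested on 6 to 8 UMIs in the 86 nuclei. The lowest, *Ist1*, *Rab3gap1*, *Nlrc5*, *Hivep3* and *Glrx3*, rested on 1 UMI each, and their ratios ran from -3.03 to -2.80. A count of 0 was set to 3 UMIs here, so genes with 0 UMIs in the 86 nuclei rank above these. Both shares of the 7505 genes depend on that setting. A gene with 0 UMIs in the 86 nuclei could count as at 1 or more. It was also less readily counted at -1 or less than a gene with 1 UMI. Thinned to 2000 UMIs, *Ist1* (0.11), *Rab3gap1* (0.059), *Nlrc5* (0.24), *Glrx3* (0.25) and *Psme3* (-0.38) changed sign. The intervals of *Zfp513* (0.84, -0.49 to 1.99), *Utp3* (0.12, -1.60 to 1.49) and *Ccnc* (0.31, -1.42 to 1.70) then spanned 0, and that of *Tctn1* (1.41, 0.20 to 2.51) did not.

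The genes described next to the 4 on the chromosome had smaller log2 ratios, apart from an lncRNA near *Cenpu* and the opposite-strand gene of *Srrm3*, which had 0 and 1 UMIs in the *Wtap* flox/flox nuclei. Near *Cenpu*, *Acsl1*, which activates long-chain fatty acids, had 36586 and 29376 UMIs in adipocyte-like nuclei (log2 ratio -0.45, -0.48 to -0.43), and the overlapping *Primpol*, a primase-polymerase, had 225 and 234 (-0.08, -0.35 to 0.19). That lncRNA was *Gm45607*, 15900 bp from *Cenpu*, with 0 and 50 UMIs, at least 3.92 higher on the log2 scale with the empty library set to 3 UMIs. Near *Gm34590*, the lncRNA *Gm41300* had 6 and 31 UMIs (2.23, 0.95 to 3.78) and *Zfp706* had 149 and 307 (0.91, 0.62 to 1.20). Near *Srrm3*, *Mdh2*, a malate dehydrogenase, was at -0.32 and the chaperone *Hspb1* at -0.51, while *Ywhag*, a 14-3-3 protein, was at 0.95 and *Styxl1* at 1.15. Near *Ccdc152*, the overlapping *Selenop*, which encodes the plasma selenium carrier, had 279 and 465 UMIs (0.60, 0.38 to 0.82) and *Ghr* had 9156 and 18171 (0.85, 0.82 to 0.89). Whether reads were counted by strand was not given in the sources used here, so reads of overlapping genes cannot be told apart with certainty.

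*Srrm3os*, named as the opposite-strand gene of *Srrm3* and picked after its values were seen, had 1 and 69 UMIs in adipocyte-like nuclei, a log2 ratio of 5.97 (3.45 to 11.30). With the *Wtap* flox/flox count set to 3 UMIs it was 4.39, below that of *Srrm3*.

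**Figure D5:**
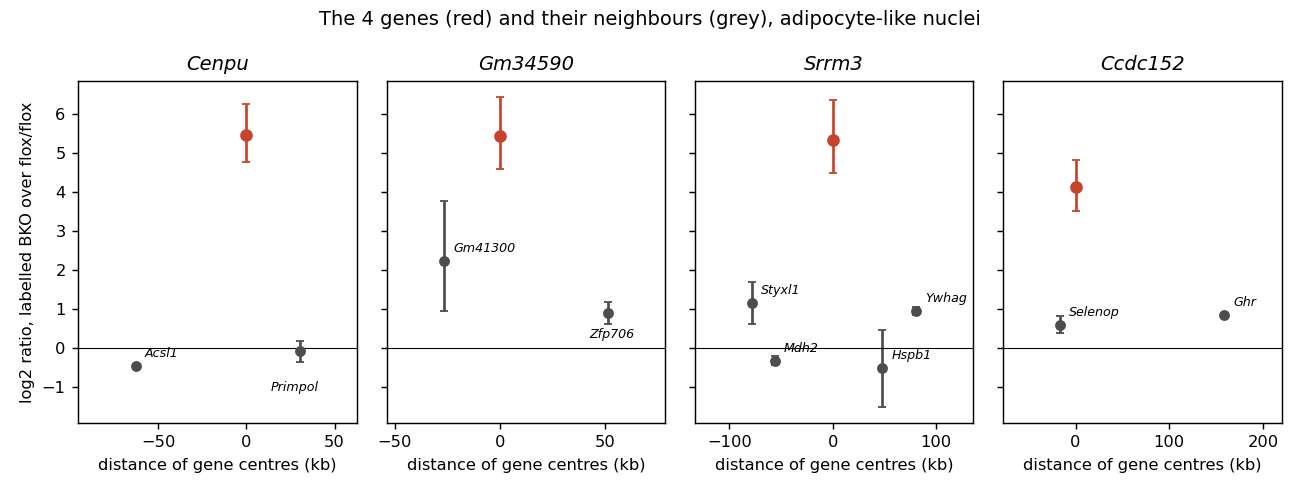
Log2 ratio in adipocyte-like nuclei, labelled *Wtap*-BKO over *Wtap* flox/flox, of the 4 genes (red) and of 10 neighbouring genes named in the text with at least 20 UMIs (grey), against the distance between gene centres in kb; whiskers are 95% counting intervals. The red points lie at 4.14 to 5.46, and the grey ones at -0.51 to 2.23; *Gm45607*, with 0 UMIs in 1 library, and *Srrm3os*, with 1 UMI there, are not drawn.

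Genes related to the 4 by function were read next. The list of 17 genes of the constitutive centromere-associated network and its partners had 13 members with at least 20 UMIs, of which 1, *Plk1*, had a log2 ratio of at least 1 (1.36, on 11 and 31 UMIs) and 0 had -1 or less, with a median of 0.24. Across all 14082 genes with at least 20 UMIs, 14.7% had a log2 ratio of at least 1, 4.21% had -1 or less, and the median was 0.07. *Cenpp* was at 0.49, *Cenpo* at -0.51 and *Cenpc1*, which binds the centromeric nucleosome, at -0.38. Of 10 cell cycle genes with enough UMIs, 6 were at 1 or more and 0 at -1 or less, with a median of 1.27, but levels were low: *Mki67*, the proliferation marker, had 6 and 44 UMIs and *Top2a* had 11 and 31. The macrophage and T cell markers *Mrc1* (1.05), *Csf1r* (1.34), *Cd3e* (1.80) and *Themis* (2.11) were also at 1 or more in these nuclei, out of 11 markers of other cells with enough UMIs, and their part in the cell cycle values was not tested.

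Of the list of *Srrm3* relatives and neural splicing regulators, 18 had enough UMIs, 0 were at 1 or more and 2 were at -1 or less, beside 14.7% and 4.21% of all genes, with a median of -0.20. *Srrm1* was at -0.18 and *Srrm2* at -0.10, on 1973 and 1916 UMIs and on 11002 and 11286 UMIs. *Srrm4*, the closest relative in function, had 3 and 4 UMIs. *Celf2* was at -1.14 and *Mbnl2* at -1.22. *Rest*, the repressor of neuronal genes, was at 0.41 (0.12 to 0.70).

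Of 20 selenoprotein genes with enough UMIs, relevant to the *Selenop* locus that *Ccdc152* overlaps, 4 were at 1 or more, near the 14.7% of all genes, and 0 at -1 or less, beside 4.21%, with a median of 0.60. The 4 were *Gpx1* (2.01), *Selenoh* (1.75), *Selenon* (1.53) and *Selenow* (1.01). Of the 10 genes of the m6A machinery, 1 was at 1 or more, *Rbm15b* (1.298), and 0 were at -1 or less, again beside 14.7% and 4.21% of all genes, with a median of -0.05.

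Over 14 points, that is the 2 libraries by the classes with at least 100 nuclei, the 4 genes had Pearson correlations of log2(CPM + 1) among themselves from 0.80 to 0.93. All points share 2 libraries, so the correlation follows the difference between them. Of 11113 genes, those most like *Cenpu* were *Zfp703* (0.95), *Adam2* (0.94) and *Tmem43* (0.94). *Gm34590* was most like *Cenpu* (0.93), *Slc25a18* (0.92) and *Gm42791* (0.90), *Srrm3* most like *Slc25a18* (0.96), *Ppp1r15b* (0.96) and *AI314278* (0.95), and *Ccdc152* most like *Fbxw10* (0.95), *Cenpu* (0.91) and *Gm47343* (0.91). *Gm47343* had 4 and 192 UMIs in adipocyte-like nuclei, a log2 ratio of 5.45, and missed the CPM minimum of the ranking.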

How the data were processed

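Nuclei from frozen iBAT were profiled by 10x snRNA-seq. The deposited values were raw counts of UMIs per gene and nucleus, which the authors made with Cell Ranger 5.0.0 per the file headers. The submitters' processing notes name mm10. The annotation, the treatment of intronic reads and the counting strand were not given in the sources used here. The methods of the study removed nuclei under 500 UMIs, and no further nucleus was removed here.

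Nuclei were clustered with Seurat 5.3.0 in R 4.3.3 after the study's methods (log-normalization, canonical correlation analysis, 20 PCs, resolution 0.5) on 2000 variable features without the 4 genes and *Wtap*. Clusters were named from fixed markers. A class other than adipocyte needed 3 markers with at least 10 UMIs and 2 times the CPM of other nuclei, and an adipocyte-like cluster needed 50% of 12 markers at 1.5 times the CPM of the named clusters. These thresholds were set with the data known. The unnamed cluster held 424 and 356 nuclei and was led by mitochondrial RNA.

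UMIs were summed per library and class with Python 3.11.15, numpy 2.4.6, scipy 1.17.1 and pandas 2.3.3 and divided by all UMIs of the class (CPM). Intervals were exact Poisson for CPM, exact binomial (Clopper-Pearson) for shares and exact conditional for ratios. UMIs of 1 nucleus or library are not independent of its preparation, so intervals cover counting error only. The ratio and thinning steps were tested on simulated data. Scrublet in scanpy 1.11.5 called 3 and 0 doublets, so its calls were not used; an alternative left out the 721 and 616 nuclei that scored highest. Among the 24 nearest or overlapping genes, 14 are in the files, and not all of these are reported here. For 38 symbols that belong to more than 1 gene, the gene listed earlier was used.

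The 4 genes, the gene lists (centromere, cell cycle, splicing, selenoprotein, m6A, thermogenic, white adipocyte and immediate-early genes, markers of other cells) and the rule for naming genes were chosen with earlier results of these data known. The rule named the 4 genes, the next in the ranking, the nearest 3 genes on each side, the 3 most correlated genes per gene, the 5 highest and 5 lowest in nuclei with 2 or more of the genes, and list members.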

Additional observations from a re-analysis of the deposited data

How the results depend on the processing

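The log2 ratios of the 4 genes in adipocyte-like nuclei stayed within their intervals under the 7 alternatives that could change them (minimum depth, mitochondrial filters, scaling, doublet scores and clustering), from 5.35 to 6.16 for *Cenpu*, 5.34 to 5.76 for *Gm34590*, 5.21 to 5.92 for *Srrm3* and 4.12 to 4.57 for *Ccdc152*. In non-adipocyte nuclei, 26 of 27 values did so, although the intervals are wide: *Ccdc152* ran from 2.43 without the highest doublet scores to 5.12 with at least 1000 UMIs. A count minimum over genes changes none of these ratios by construction. Without nuclei over 5% mitochondrial UMIs, *Cenpu* moved there to 3.51, and *Ccdc152* had 0 *Wtap* flox/flox UMIs and gave no value. Shares follow depth by construction. Thinned to 500 UMIs, *Cenpu*, *Gm34590*, *Srrm3*, *Ccdc152* and 2 or more of them were in 4.30%, 2.84%, 2.74%, 2.33% and 0.912% of adipocyte-like nuclei labelled *Wtap*-BKO. Thinned to 2000 UMIs they were in 16.8%, 12.1%, 10.7%, 8.87% and 8.80%, and *Srrm3* and *Ccdc152* were in 0.462% and 0.693% of *Wtap* flox/flox nuclei. Without thinning they were in 12.8%, 8.88%, 8.68%, 6.93% and 6.51%. Without nuclei over 5% mitochondrial UMIs, *Gm34590* was in 7.16%, *Ccdc152* in 6.24% and 2 or more genes in 3.002%. Without the highest doublet scores *Gm34590* was in 6.17%, beside 5.93% with another thinning seed, and with 8 PCs 2 or more genes were in 2.76%, and the cause was not tested.

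In nuclei with 2 or more of the genes, the log2 ratio of summed thermogenic CPM was 0.46 without nuclei over 5% mitochondrial UMIs and 0.21 with 1 or more genes, and that of the m6A machinery was 0.13 (-0.30 to 0.53) and moved to 0.67 without nuclei over 5% mitochondrial UMIs. Thinned to 2000 UMIs, *Psme3* turned to -0.38, *Ist1* to 0.11, *Rab3gap1* to 0.059, *Nlrc5* to 0.24 and *Glrx3* to 0.25. *Glrx3* was also at 0.52 without nuclei over 5% mitochondrial UMIs. These 5 thus have no stable direction. Of the other values of single genes, 10 left their interval in the same direction and 9 did not. The intervals of *Zfp513*, *Utp3* and *Ccnc* spanned 0 at 2000 UMIs, and that of *Tctn1* did with 1 or more genes (0.16, -0.68 to 0.94). Other alternatives left *Zfp513* (1.08 with 1 or more genes), *Tctn1* (1.41 at 2000 UMIs) and *Ccnc* (2.90 without nuclei over 5% mitochondrial UMIs) above 0. The direction of *Zfp513*, *Tctn1*, *Utp3* and *Ccnc* is thus not settled.

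No paired analysis was possible because each genotype had 1 library. The depth of about 1000 UMIs per nucleus limits the shares and the counts of shared detection, and 1 pooled library per genotype leaves the spread between mice unknown.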

Other observations

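The remaining lists were read in the same adipocyte-like nuclei. Of all 14082 genes with at least 20 UMIs, 14.7% were at a log2 ratio of 1 or more and 4.21% at -1 or less. Of 18 thermogenic genes with at least 20 UMIs, 0 were at a log2 ratio of 1 or more and 3 were at -1 or less, with a median of -0.48, namely *Ppargc1a* (-1.29), *Pparg* (-1.09) and *Gk* (-1.03). *Ucp1* had 1148 and 2155 UMIs and was at 0.77. Of the 9 white adipocyte genes listed, 6 had at least 20 UMIs. All 6 were at 1 or more, against 14.7% of all genes, with a median of 1.61, and *Nnat* was highest at 3.34. Cluster 9, led in part by *Slc7a10* and *Retn* of this list, held 198 of 6743 and 495 of 4933 of these nuclei, and its part in these ratios was not tested. Of 12 immediate-early genes, 10 were at 1 or more, against the same 14.7%, with a median of 1.57, and *Egr1* and *Junb* led them at 4.19 and 3.20. Of the 12 adipocyte markers, 5 were at 1 or more, with *Fasn* highest at 2.23.

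Markers of other cells moved both ways within adipocyte-like nuclei. Of 11 with enough UMIs, 4 were at 1 or more, the macrophage and T cell genes *Mrc1*, *Csf1r*, *Cd3e* and *Themis*, and 3 were at -1 or less, *Flt1*, *Rgs5* and *Cdh19*, beside 14.7% and 4.21% of all genes. The 12 summed to 121 CPM in the *Wtap* flox/flox library and 104 CPM in the library labelled *Wtap*-BKO. Their part in the values of the 4 genes was not tested.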
